A study of Mus musculus with 27 samples.

Results

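The response to repeated cocaine was measured in D2 neurons, the striatal neurons that express the dopamine receptor gene Drd2. They were represented by the 14 arrays of the Drd2 TRAP line among the 27 arrays of the series, chosen by their labels. TRAP (translating ribosome affinity purification) pulls down ribosomes that carry a GFP-tagged L10a protein in 1 cell type, so the arrays report messenger RNA bound to ribosomes. The 4 groups came from adult male mice, 2 to 5 months old, on a mixed C57BL/6 and 129/Sv background. All of them carried 2 floxed copies of G9a (gene Ehmt2), a histone methyltransferase. Mutants (Drd2-TRAP; Drd2-Cre; G9a fl/fl) were given cocaine (4 arrays) or saline (3 arrays), and controls (Drd2-TRAP; G9a fl/fl, no Cre) were likewise given cocaine (4 arrays) or saline (3 arrays). Mutants therefore differ from controls by the Cre transgene as well as by G9a. The daily dose of cocaine was 20 mg/kg, both cocaine and saline were injected 8 times, and mice were taken 2 h after the last injection, with 2 to 4 mice per group in the study's design. The labels do not say that each array came from its own mouse, so the p-values cover the spread among arrays, which may be technical in part.

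Cocaine blocks the reuptake of dopamine, and D2 medium spiny neurons (MSN) give rise to the indirect pathway of the basal ganglia. Their D2 receptor lowers cyclic AMP, whereas the D1 receptor of the neighbouring direct-pathway neurons raises it. Immediate early genes are switched on within minutes to hours of neuronal activity, and Fos and Arc are the standard markers of that response. The Drd2 promoter that drives the tag and Cre is also active in cholinergic interneurons.

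Drd2 itself lay between 12.28 and 13.60 on the log2 scale in the D2 arrays, against 6.33 to 7.10 in the D1 arrays, and Drd1 lay between 9.71 and 10.65 in the D2 arrays, against 12.12 to 12.85 in the D1 arrays. Ehmt2 was between 8.68 and 9.38 in the 7 mutant D2 arrays and between 10.67 and 11.01 in the 7 control D2 arrays. The labelled neuron type and genotype were thus visible in each D2 array. The source name of mutant cocaine replicate 4 calls it a control, while its title, genotype and description call it a mutant, and its Ehmt2 level was 8.96. Ttr, a choroid plexus gene, was 11.40 in control cocaine replicate 3, against 5.40 to 6.24 in the other 3 arrays of that group. The mean of the cholinergic markers tested (3 genes) ranged from 6.62 to 8.15 in cocaine arrays and from 6.64 to 8.01 in saline arrays. RNA quality, the 3' minus 5' log2 difference of control probe sets, differed by -0.08 between cocaine and saline (exact permutation test within genotypes, 2-sided, p = 0.389 with 1225 relabelings). It differed by -0.18 in controls (exact permutation p = 0.286) and by 0.02 in mutants (exact permutation p = 0.943). The smallest p that this test allows in 1 genotype is 0.0286.

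A cocaine effect is the mean log2 level after cocaine minus that after saline, computed in mutants and in controls and averaged over both. Of 12017 genes tested with limma, 16 passed at a Benjamini-Hochberg adjusted p under 0.05, which is 0.133% of them. Of these, 10 rose (0.0832%) and 6 fell (0.0499%), and the 16 effects had the same sign in mutants and in controls. The 16 genes were chosen by the average of these 2 effects, so the shared sign is a description. The genes that rose were led by Fos, Nr4a3 and Arc, with folds of 5.21, 2.52 and 2.03. The genes that fell did so by 0.34 to 0.42 on the log2 scale. At an unadjusted p under 0.05, 319 genes were higher and 805 lower, and the median effect of all genes was -0.02.

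Promoter sequences are shown for 5 immediate early genes with positive effects, because cyclic AMP response elements are the textbook route from receptor signalling to such genes. Fos and Nr4a3 passed, whereas Nr4a1, Tiparp and Dusp1 did not. Fos, Nr4a1, Nr4a3 and Tiparp had the largest effects of the 8 genes searched, Tiparp has no element in its window, and Dusp1, with the smallest effect of the 8, is shown for its full element. Each window holds 250 bases before to 50 bases after the RefSeq start (build GRCm38.p6), written in the direction of transcription. Capitals mark the core site TGACG on either strand, and in Dusp1 the full element TGACGTCA, which overlaps its core sites.
Fos, chr12:85473640-85473939, + strand: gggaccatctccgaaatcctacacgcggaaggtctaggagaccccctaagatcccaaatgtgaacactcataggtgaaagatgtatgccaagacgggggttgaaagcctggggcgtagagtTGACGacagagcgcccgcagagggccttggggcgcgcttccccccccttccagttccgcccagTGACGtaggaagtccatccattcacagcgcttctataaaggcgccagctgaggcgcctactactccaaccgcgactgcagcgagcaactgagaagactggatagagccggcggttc
Nr4a3, chr4:48045055-48045354, + strand: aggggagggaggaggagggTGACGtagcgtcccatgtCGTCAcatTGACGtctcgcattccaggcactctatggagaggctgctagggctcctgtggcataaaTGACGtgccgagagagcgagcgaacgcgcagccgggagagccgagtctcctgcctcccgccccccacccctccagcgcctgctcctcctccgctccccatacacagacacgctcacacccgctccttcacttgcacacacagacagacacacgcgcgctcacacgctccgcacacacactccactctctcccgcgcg
Nr4a1, chr15:101266596-101266895, + strand: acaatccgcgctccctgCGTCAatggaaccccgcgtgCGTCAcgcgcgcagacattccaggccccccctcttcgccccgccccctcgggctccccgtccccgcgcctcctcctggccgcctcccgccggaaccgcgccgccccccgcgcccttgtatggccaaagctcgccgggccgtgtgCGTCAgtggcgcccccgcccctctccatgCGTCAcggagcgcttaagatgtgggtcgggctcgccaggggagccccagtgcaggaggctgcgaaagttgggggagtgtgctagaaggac
Tiparp, chr3:65528197-65528496, + strand: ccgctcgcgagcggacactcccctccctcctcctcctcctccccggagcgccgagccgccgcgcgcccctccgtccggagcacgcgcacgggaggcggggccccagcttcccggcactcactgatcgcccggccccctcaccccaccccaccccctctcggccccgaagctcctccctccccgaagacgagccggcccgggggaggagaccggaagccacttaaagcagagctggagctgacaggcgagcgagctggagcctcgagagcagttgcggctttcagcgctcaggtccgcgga
Dusp1, chr17:26508423-26508722, - strand: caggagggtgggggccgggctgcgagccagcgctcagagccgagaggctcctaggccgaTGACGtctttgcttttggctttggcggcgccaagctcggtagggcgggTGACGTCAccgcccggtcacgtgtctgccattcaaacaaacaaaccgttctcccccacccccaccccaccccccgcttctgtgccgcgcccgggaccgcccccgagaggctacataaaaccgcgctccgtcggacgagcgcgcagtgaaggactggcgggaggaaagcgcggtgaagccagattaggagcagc
The 8 genes searched were Fos, Nr4a1, Nr4a3, Tiparp, Egr2, Junb, Fosl2 and Dusp1. They had the largest positive effects among the immediate early genes with a window in the promoter sequences used here. Arc, with an effect of 1.02, had no window there and was not searched. The core site occurred in 6 of the 8, with none in Tiparp and Fosl2, against 23% of the 27038 genes with a window. The full element occurred in 1 of these 8 and in 2.03% of genes. The AP-1 site TGACTCA occurred in 0 of the 8 and in 5.94% of genes, and a CArG box, the site of serum response factor, in 1 (Egr2) and in 1.8%. Egr2 had 5 windows and the other genes searched 1 each. Bases farther from the start were not searched, so a gene without a site here, Fos included, may have one outside its window. The 8 genes were ranked by their effect in these arrays, so these shares describe the letters in the windows and test nothing.

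Fos, a subunit of the AP-1 transcription factor, showed the clearest response. Its levels were 10.95, 9.96, 8.67 and 9.43 in cocaine mutants, against 7.10, 7.84 and 7.89 in saline mutants. In controls they were 9.50, 9.51, 9.96 and 8.93 after cocaine, against 6.49, 6.63 and 7.42 after saline. The 8 cocaine arrays lay above the 6 saline arrays without overlap, a pattern that 18 of the 12017 genes tested had. In 13 genes the cocaine arrays lay below the saline arrays without overlap. The averaged effect was 2.38 ± 0.297 (SE; n = 8 cocaine and 6 saline arrays; limma adjusted p = 0.00031), and the effects were 2.14 in mutants and 2.62 in controls. An exact permutation test within genotypes gave p = 0.000816, the smallest that its 1225 relabelings allow.

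Arc, whose protein works at synapses in receptor trafficking, rose by 1.02 ± 0.181 (SE; adjusted p = 0.0133, limma). It measured 8.81, 8.47, 7.88 and 7.96 in cocaine mutants, against 7.55, 7.53 and 7.32 in saline mutants. In controls Arc measured 8.38, 8.65, 9.10 and 7.93 after cocaine, against 7.17, 7.36 and 7.35 after saline. Here too the lowest cocaine array stood above the highest saline array. The exact permutation p was 0.00245. Without control saline replicate 1, Arc missed the threshold (adjusted p = 0.0621, limma), and without that array and control cocaine replicate 1 together its adjusted p was 0.101.

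The orphan nuclear receptors of the Nr4a family are transcription factors induced by cyclic AMP and calcium. Nr4a3 measured 11.16, 11.42, 10.10 and 10.03 in cocaine mutants, against 8.79, 9.44 and 9.36 in saline mutants. In controls it measured 10.14, 9.73, 9.92 and 9.58 after cocaine, against 8.28, 8.67 and 9.01 after saline. The drug groups of Nr4a3 did not overlap over the 14 arrays, and its effect was 1.34 ± 0.193 (SE; adjusted p = 0.00206, limma). A second probe set of Nr4a3 above the floor of 6 log2, at a mean of 7.35, had an effect of 0.03. Nr4a1 had an effect of 1.43 but missed the threshold (adjusted p = 0.0833, limma). Its levels were 11.00, 10.67, 9.39 and 9.24 in cocaine mutants, against 8.02, 8.94 and 8.08 in saline mutants. In controls Nr4a1 reached 9.98, 9.40, 10.37 and 8.31 after cocaine, against 7.88, 8.30 and 9.0 after saline. In controls 1 cocaine array, replicate 4, lay below the highest saline array. Nr4a2 had an effect of 0.15.

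**Figure D1:**
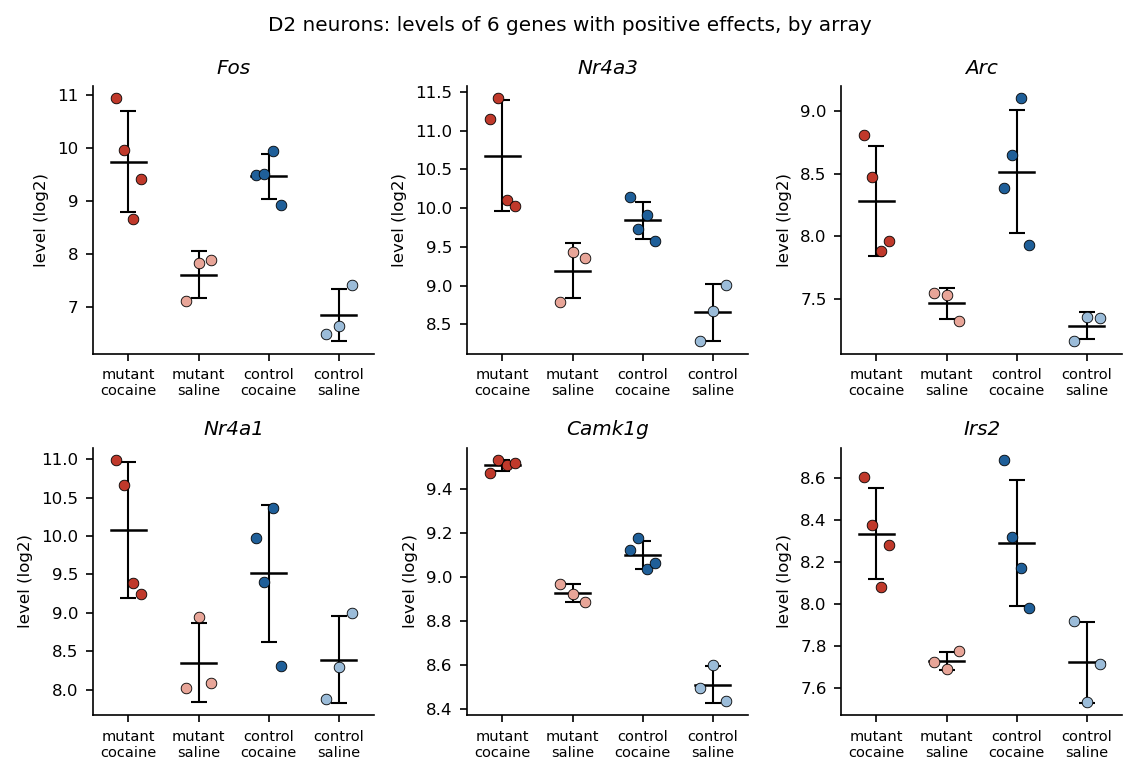
Levels (log2, y axis) of Fos, Nr4a3, Arc, Nr4a1, Camk1g and Irs2 in the 14 D2 arrays, by group on the x axis, with points for arrays, a line for the group mean and bars of 1 SD (n = 4 cocaine and 3 saline per genotype). The cocaine arrays of Fos lie between 8.67 and 10.95 and the saline arrays between 6.49 and 7.89, while for Nr4a1 control cocaine replicate 4 (8.31) falls among the saline arrays.

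These 3 and their kin make up 72 immediate early genes tested from 5 lists. Of the 72, 56 had a positive averaged effect, against 41.0% of all genes, and 3 passed (Fos, Nr4a3 and Arc). At an unadjusted p under 0.05, 22 of the 72 were higher (30.6%), against 2.65% of all genes, and 1 was lower. Their median effect was 0.15, beside -0.02 for all genes. Of the 22 genes of the whole array whose averaged effect exceeded 0.5 log2, 12 were in these lists.

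Among the AP-1 factors (7 tested, 1 passed), Junb (0.76) and Fosl2 (0.71) had the next largest effects after Fos, and Jund, which is expressed without stimulation in many cells, had -0.01. Fosb, whose truncated product accumulates with repeated drug exposure in rodents, had 0.27 (adjusted p = 0.788, limma). Its transcripts were not told apart here. Among the Egr and Nr4a factors (9 tested, 1 passed), the zinc finger factors Egr2 and Egr4 had 1.00 and 0.58, whereas Egr1 and Egr3 had 0.13 and -0.04. Among the other immediate early factors (15 tested, 0 passed), Crem, an effector of cyclic AMP signalling, had 0.46 and Btg2 0.44. Among the synaptic and signalling effectors (32 tested, 1 passed), Tiparp, an ADP-ribosyltransferase, had 1.06 (adjusted p = 0.0858, limma), Midn 0.57, Gadd45g 0.46 and Plk3 0.45. Homer1 and Plk2, both synaptic regulators, had 0.10 and 0.01. The transcripts of Homer1 were not told apart either. Among the MAP kinase phosphatases (9 tested, 0 passed), Dusp1 had 0.61 and Dusp14 0.60. Dusp1 missed the threshold (adjusted p = 0.101, limma). Its cocaine arrays (10.54 to 11.16) lay above its saline arrays (10.01 to 10.33) without overlap, as did those of 18 of all 12017 genes, Dusp1 included. The large positive effects were thus spread over transcription factors and signalling proteins, with other members of each list near 0.

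The size of the response differed between cocaine arrays. Over the 22 genes with an unadjusted p under 0.05, the median level above the saline mean of the same genotype was 0.95, 1.08, 0.29 and 0.33 log2 in cocaine mutants 1 to 4. In cocaine controls 1 to 4 it was 0.48, 0.44, 0.56 and 0.17. Mutant cocaine replicates 1 and 2 held the highest cocaine value for 18 of the 22 genes, and control cocaine replicate 4 the lowest for 11. The 22 genes were chosen on these arrays, so the values describe the arrays and test nothing.

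Of the other 7 genes that rose, Camk1g and Irs2 kept their call in each of the 14 fits that leave out 1 D2 array. Camk1g encodes a calcium/calmodulin-dependent kinase. It measured 9.47, 9.53, 9.51 and 9.52 in cocaine mutants, against 8.97, 8.92 and 8.89 in saline mutants. In controls it measured 9.12, 9.18, 9.04 and 9.06 after cocaine, against 8.49, 8.60 and 8.44 after saline. The effect was 0.59 ± 0.0969 (SE; adjusted p = 0.0112, limma). Irs2, the docking protein of the insulin receptor, rose by 0.59 ± 0.102 (SE; adjusted p = 0.0125, limma). Its levels were 8.08 to 8.60 in cocaine mutants, against 7.69 to 7.78 in saline mutants, and 7.98 to 8.69 in cocaine controls, against 7.53 to 7.92 in saline controls. Both genes separated the drugs over the 14 arrays.

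Med17, a subunit of the Mediator complex, rose by 0.34 and Syne1, which links the nucleus to the cytoskeleton, by 0.32. Med17 lay between 8.95 and 9.15 in cocaine mutants, against 8.66 to 8.80 in saline mutants, and between 8.88 and 9.05 in cocaine controls, against 8.49 to 8.64 in saline controls. Syne1 lay between 11.21 and 11.41 in cocaine mutants, against 11.00 to 11.10 in saline mutants. Its effect was 0.26 in mutants and 0.38 in controls, and its other 2 probe sets above the floor had averaged effects of 0.14 and 0.12. Rnf217, a ubiquitin ligase, rose by 0.75 (adjusted p = 0.049, limma), Insl6, a relaxin-family peptide, by 0.56 and Mthfd1l, an enzyme of mitochondrial one-carbon metabolism, by 0.35. Insl6 was near the floor of 6 log2, at 6.26 to 7.30 after cocaine and 5.69 to 6.82 after saline. Rnf217 stood at 10.79 and 11.07 in mutant cocaine replicates 1 and 2, against 9.94 and 9.92 in mutant cocaine replicates 3 and 4. Its effect was 1.07 in mutants and 0.44 in controls. A second Rnf217 probe set had 0.69. In 9 of the 10 genes that rose, the drug groups did not overlap within either genotype, a pattern that 33 of all genes (0.275%) had. For the genes that fell the count was 3 of 6, against 55 of all genes (0.458%). Both sets were chosen by this drug contrast, so the counts are a description.

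The 6 genes that fell did not belong to the immediate early lists. Pigl, an enzyme of GPI-anchor synthesis, measured 8.09, 7.94, 8.14 and 7.89 in cocaine mutants, against 8.36, 8.23 and 8.32 in saline mutants. In controls Pigl measured 7.94, 8.08, 7.95 and 8.17 after cocaine, against 8.52, 8.80 and 8.39 after saline. It fell by 0.42 ± 0.0784 (SE; adjusted p = 0.0215, limma), with no overlap over the 14 arrays, although another Pigl probe set had an effect of -0.0031. Atg9b, an autophagy membrane protein, also fell by 0.42 (adjusted p = 0.0125, limma), and Nhlrc3 fell by 0.37 (adjusted p = 0.0306, limma). Atg9b stayed close to the floor, at 5.63 to 6.12 after cocaine and 5.98 to 6.79 after saline. Nhlrc3 was low as well, at 6.17 to 6.77 after cocaine and 6.79 to 6.96 after saline. The effects in mutants were -0.29 for Pigl, -0.27 for Atg9b and -0.23 for Nhlrc3. In controls they were larger, at -0.54, -0.57 and -0.51. For Pigl and Atg9b the saline controls lay above all other D2 arrays.

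Htr1d, an inhibitory serotonin receptor, fell by 0.36 ± 0.0694 (SE; adjusted p = 0.0273, limma), and its effects were -0.35 in mutants and -0.36 in controls. Its levels were 9.12, 9.33, 9.35 and 9.22 in cocaine mutants, against 9.64, 9.52 and 9.67 in saline mutants. In controls they were 9.42, 9.21, 9.39 and 9.70 after cocaine, against 9.86, 9.65 and 9.86 after saline. The drug groups of Htr1d were apart in mutants and overlapped in controls, where cocaine replicate 4 (9.70) was above the lowest saline array (9.65). Its other 2 probe sets above the floor had effects of -0.44 and -0.18.

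St6galnac6, a sialyltransferase of ganglioside synthesis, and Rapgef1, an exchange factor for the small GTPase Rap1, fell by 0.37 and 0.34 on average. They too fell unevenly between genotypes, with effects of -0.09 and -0.06 in mutants and -0.64 and -0.63 in controls. St6galnac6 measured 10.03, 10.03, 10.15 and 10.11 in cocaine mutants, against 10.15, 10.16 and 10.20 in saline mutants. In controls it measured 10.06, 10.30 and 10.35 in cocaine replicates 1, 2 and 4, with replicate 3 lower still, against 10.70, 10.78 and 10.97 after saline. The 3 saline controls thus stood above the other 11 D2 arrays. Rapgef1 had the same pattern, with 9.71 to 9.94 in saline controls and 8.98 to 9.42 in the other D2 arrays, and a second Rapgef1 probe set near the floor had an effect of 0.07.

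The averaged calls leaned on single arrays to different degrees. Fos and Nr4a3 passed in each of the 14 fits that leave out 1 D2 array. St6galnac6 passed in 13 (lost without control saline replicate 3), Arc in 13, Med17 and Atg9b in 12, Syne1 in 11, Insl6 and Pigl in 6, Mthfd1l in 5, Nhlrc3 and Htr1d in 4, and Rnf217 and Rapgef1 in 3. The count of genes was lowest, at 6, without control saline replicate 1 and also without control saline replicate 3. Further arrays that lowered it by over 1.5 times were mutant saline replicate 2 (7 genes), control cocaine replicates 1 and 3 (9 each) and mutant saline replicate 1 (10). It was 50 without control cocaine replicate 4, and that fit included the 16 genes. Fitting the 14 D2 arrays without the D1 arrays left 7 genes, 5 of them among the 16, and no gene that fell.

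In controls taken alone, 16 genes passed. Fos and Arc rose (0.0166% of genes) and 14 fell (0.117%). In mutants no gene passed with limma, while 588 had an unadjusted p under 0.05 and the smallest adjusted p was 0.0732. The difference of the 2 cocaine effects, mutants minus controls, passed for no gene either (583 at an unadjusted p under 0.05, smallest adjusted p 0.561, limma), so an unequal response of the genotypes was not shown. Of the 14 genes that fell in controls, 11 also had a negative effect in mutants, where 51.4% of all genes had a positive one. The effects of the 14 in mutants ranged from -0.29 (Pigl) to 0.07 (Zfp521). Fos lost its call in controls without control saline replicate 1 (adjusted p = 0.0836, limma), and Arc in controls passed in 1 of 7 fits that leave out a control array. The count in controls ranged from 2, without control saline replicate 1 or 3, through 4 and 5 without control cocaine replicates 3 and 1 and 8 without control saline replicate 2, to 48 without control cocaine replicate 4.

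The genes that fell in controls were led by Mapk8ip2, a scaffold of the JNK pathway, at -0.71 (adjusted p = 0.00347, limma). Mapk8ip2 measured 9.61, 9.69, 9.55 and 9.76 in cocaine controls, against 10.45, 10.20 and 10.45 in saline controls. In mutants it measured 9.70, 9.72, 9.64 and 9.63 after cocaine, against 9.55, 9.75 and 9.63 after saline, an effect of 0.03. Its saline controls stood apart from the other 3 groups, which lay together. Tmcc2 (-0.68), Man2a2, a Golgi mannosidase (-0.58), and Zmiz2, a transcriptional coactivator (-0.57), fell as well, with effects in mutants of -0.09, -0.05 and 0.01. In 12 of the 14 genes the 3 saline controls lay above each of the other 11 D2 arrays. That pattern was found in 328 of all genes (2.73%), and the reverse, saline controls below the other 11, in 70 (0.583%). The 14 genes had been chosen by a contrast with these same saline controls, so the count is a description. The exceptions were Nhlrc3 and Zfp521.

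Zfp521, a zinc finger factor and a D1 MSN marker, differed more by genotype than by drug. It measured 7.51 to 7.75 in cocaine mutants, against 7.46 to 7.58 in saline mutants, and 6.20 to 6.45 in cocaine controls, against 6.62 to 6.82 in saline controls. Its effect was 0.07 in mutants and -0.42 in controls (adjusted p = 0.0352 in controls, limma). The smallest p-values for mutants minus controls belonged to Mapk8ip2 (0.74, adjusted p = 0.561, limma) and Acadl (1.34, adjusted p = 0.561, limma), a mitochondrial acyl-CoA dehydrogenase. Acadl measured 7.08, 7.54, 7.12 and 7.26 in cocaine mutants, against 5.62, 6.90 and 6.15 in saline mutants. In controls it measured 5.67, 6.08, 5.88 and 6.06 after cocaine, against 6.46, 6.31 and 5.95 after saline. In mutants Slitrk6, a neuronal membrane protein, had the largest negative effect among the 5 genes with the smallest p, at -1.05 (adjusted p = 0.321, limma).

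**Figure D2:**
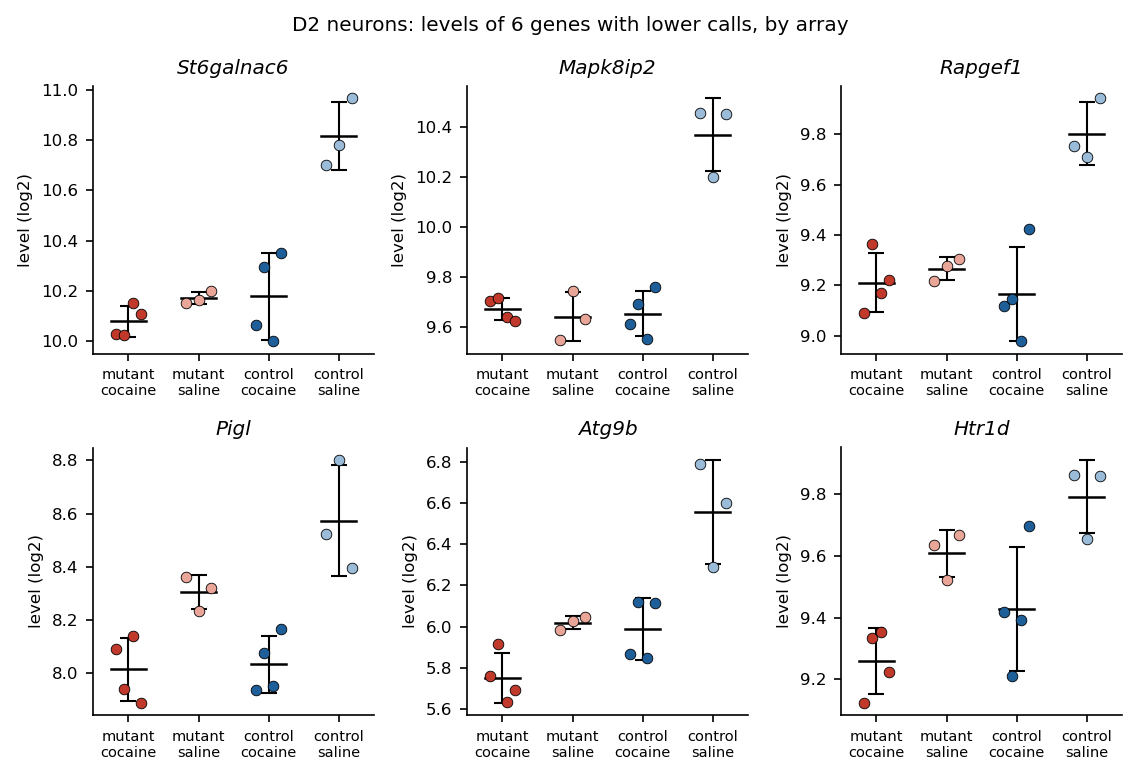
Levels (log2, y axis) of St6galnac6, Mapk8ip2, Rapgef1, Pigl, Atg9b and Htr1d in the 14 D2 arrays, by group on the x axis, with points for arrays, a line for the group mean and bars of 1 SD (n = 4 cocaine and 3 saline per genotype). For Mapk8ip2 the saline controls (10.20 to 10.45) stand above the other groups (9.55 to 9.76), whereas for Htr1d saline lies above cocaine in mutants and the drugs overlap in controls.

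Dopamine receptors and cyclic AMP signalling gave no call. Of 30 genes of cyclic AMP and DARPP-32 signalling, none passed (limma), 1 was higher and 1 lower at an unadjusted p under 0.05, and the median effect was -0.04. Adcy5, the main striatal adenylyl cyclase, was the lower one, at -0.33 (adjusted p = 0.118, limma), with 12.26 to 12.60 in cocaine mutants, against 12.61 to 12.76 in saline mutants, and 12.31 to 12.84 in cocaine controls, against 12.84 to 12.91 in saline controls. The 3 dopamine receptors tested had effects of -0.27 (Drd2), -0.18 (Drd1) and -0.05 (Drd4), and none passed. Drd2 had an unadjusted p of 0.0205 and an adjusted p of 0.422 (limma).

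None of the 9 D2 MSN markers passed, and their median effect was -0.09. Fewer tagged cells and less RNA per cell cannot be told apart in such bulk samples. The mean level of these markers lay between 10.55 and 10.89 in cocaine arrays and between 10.73 and 10.95 in saline arrays (exact permutation p = 0.0776, adjusted over 14 measures 0.804).

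The synaptic lists gave no call in the averaged contrast. Of 18 glutamate receptors, 9 GABA-A subunits, 18 postsynaptic scaffolds, 40 potassium channels, 16 neuropeptides and 17 RGS proteins, none passed (limma), with 1, 2, 2, 5, 2 and 2 at an unadjusted p under 0.05, which 9.35% of all genes had. Gabrd, the extrasynaptic GABA-A subunit, had -0.36 (adjusted p = 0.183, limma), with 10.21 to 10.82 in cocaine controls, against 10.92 to 11.15 in saline controls, and an effect of -0.12 in mutants. Nlgn3, a synaptic adhesion protein, had -0.29, Grik2, a kainate receptor, -0.24, and the potassium channel genes Kcna5 and Kcnn1 had 0.22 and -0.23.

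Of 19 circadian clock genes none passed (limma), while 4 were higher and 1 lower at an unadjusted p under 0.05, against 2.65% higher and 6.7% lower of all genes, and their median was 0.07. Per2, a clock repressor that also responds to stimulation, had 0.48 (adjusted p = 0.0954, limma), Ciart 0.43 and Cry1 0.35. Ciart lay between 8.75 and 8.92 in cocaine mutants, against 8.21 to 8.58 in saline mutants, and between 8.74 and 9.01 in cocaine controls, against 8.45 to 8.65 in saline controls. Its cocaine arrays were above its saline arrays without overlap over the 14 arrays, a pattern of 18 of all 12017 genes. Nr1d1 had -0.18. The time of day of collection is not given in the sources used here.

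Of 25 genes of H3K9 methylation none passed (limma), with a median of -0.05, and the drug effect on Ehmt2 was -0.02 in mutants and -0.18 in controls. Of 17 histone deacetylases none passed (limma). Hdac5, a signal-responsive class II deacetylase, had -0.37 (adjusted p = 0.14, limma), with 10.56, 10.88, 10.97 and 10.89 in cocaine mutants, against 11.04, 11.11 and 11.06 in saline mutants. In controls Hdac5 measured 10.74, 10.68, 10.64 and 10.92 after cocaine, against 11.19, 11.25 and 11.26 after saline. Its drug groups did not overlap over the 14 arrays, with cocaine below saline, a pattern of 13 of all 12017 genes.

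The medians of several lists, among them those of ribosomal proteins, oxidative phosphorylation, oligodendrocytes and their precursors, were positive in mutants and negative in controls. The median effect of 45 cytosolic ribosomal proteins was 0.12 in mutants and -0.14 in controls, beside 0.00 and -0.05 for all genes. Of the 45, 41 had a positive effect in mutants and 5 in controls, against 51.4% and 36.0% of all genes. For 74 genes of oxidative phosphorylation the medians were 0.07 in mutants and -0.10 in controls. None of these genes passed in either genotype or in the difference of the effects (limma). Without adjustment, the difference was positive at p under 0.05 (limma) for 15 of the 45 and 8 of the 74, against 485 of all 12017 genes. Oligodendrocyte markers (10 tested) had medians of 0.05 in mutants and -0.28 in controls, and oligodendrocyte precursor markers (5) 0.05 and -0.23. Astrocyte markers (7) had -0.06 in mutants and -0.20 in controls, and the cholinergic markers (3) -0.06 and -0.52, negative in both. The mean level of the oligodendrocyte markers lay between 6.96 and 8.38 in cocaine arrays and between 7.73 and 8.30 in saline arrays (exact permutation p = 0.324, adjusted over 14 measures 0.804), with its lowest value in control cocaine replicate 1. The part of these markers in the genes that fell in controls was not tested beyond a fit with the glial level as a covariate, in which 2 genes rose and 3 fell in controls.

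**Figure D3:**
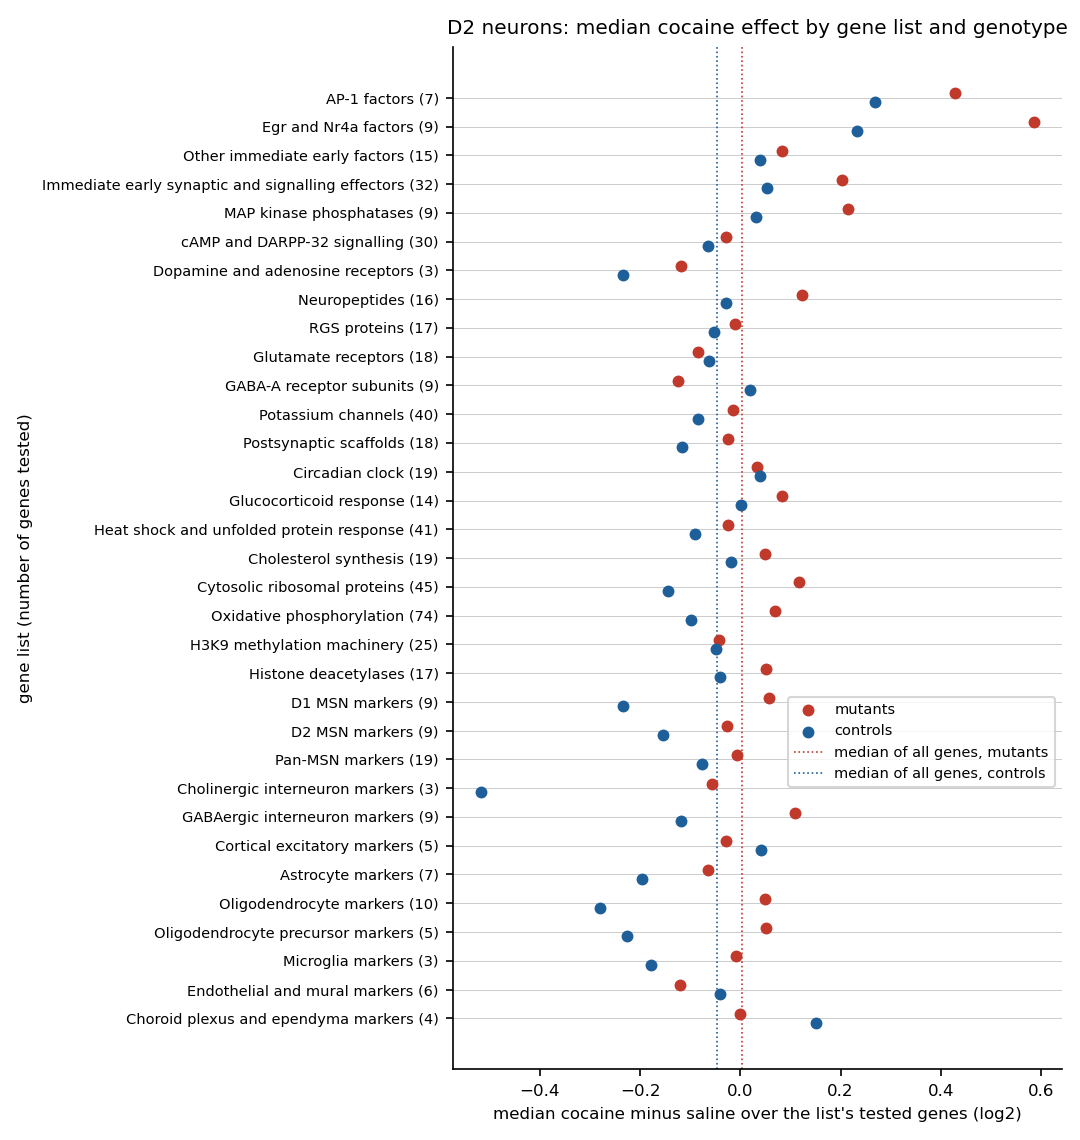
Median cocaine effect in D2 neurons (log2, x axis) over the tested genes of each list (y axis, with the number of genes), in mutants (red) and controls (blue), with dotted lines at the medians of all genes (0.00 in mutants and -0.05 in controls). The AP-1 and the Egr and Nr4a lists lie to the right in both genotypes (0.43 and 0.59 in mutants, 0.27 and 0.23 in controls), and the oligodendrocyte list lies at 0.05 in mutants and -0.28 in controls.

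The response of D2 neurons was set against that of D1 neurons, measured on 13 arrays of the Drd1 line from mice of the same sex, age range and injection schedule. Mutants (Drd1-TRAP; Drd1-Cre; G9a fl/fl) had 4 cocaine and 3 saline arrays, and controls (Drd1-TRAP; G9a fl/fl, no Cre) had 4 cocaine and 2 saline arrays. In D1 neurons 90 genes passed (0.749%), 5 of them among the 16 of D2 neurons (31.3% of these and 5.56% of the D1 genes). The 5 were Fos, Nr4a3, Arc, Rnf217 and Irs2. Of the 72 immediate early genes, 3 passed in D2 neurons and 17 in D1 neurons, with median effects of 0.15 in D2 and 0.32 in D1 neurons. The difference of the effects, D2 minus D1, passed for 0 of the 72 (limma), although 12 were lower and 1 higher at an unadjusted p under 0.05. Of all 12017 genes, 1131 were lower and 192 higher at that threshold. The median difference was -0.16 for the 72 and -0.06 for all genes. Fos had 2.38 in D2 and 1.63 in D1 neurons (difference 0.76, 95% interval -0.14 to 1.65, adjusted p = 0.552, limma). In saline arrays Fos lay between 6.49 and 7.89 in D2 neurons and between 8.52 and 9.42 in D1 neurons. Fosb had 0.27 in D2 and 1.31 in D1 neurons, and Inhba, a subunit of activin, 0.21 in D2 and 0.82 in D1 neurons, differences that did not pass.

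Across all genes, 3 passed in D2 minus D1, each with the lower effect in D2 neurons (0.025%). Shisa2 had an effect of 0.42 in D2 and 1.77 in D1 neurons, a difference of -1.35 ± 0.245 (SE; adjusted p = 0.0444, limma). Its levels in D2 arrays were 5.63 to 6.49 in cocaine mutants, against 5.51 to 5.78 in saline mutants, and 6.28 to 6.96 in cocaine controls, against 5.97 to 6.67 in saline controls. In D1 arrays Shisa2 measured 7.28 to 8.62 after cocaine, against 6.21 to 6.44 after saline. The D1 arrays of the 2 drugs were apart, while the D2 arrays overlapped. Apold1, an endothelial and activity-induced gene, had 0.05 in D2 and 0.89 in D1 neurons, a difference of -0.83 (adjusted p = 0.0154, limma). Apold1 lay at 5.56 to 6.26 in the D2 arrays, above the floor of 6 log2 in 2 of the 14, so it entered the test through the D1 arrays and its D2 effect was not measured well. Shisa2 was above the floor in 8 of the 14 D2 arrays. St6galnac6 had -0.37 in D2 and 0.19 in D1 neurons, a difference of -0.56 (adjusted p = 0.0154, limma). Its D2 effect was -0.64 in controls, whose saline arrays stood above all other D2 arrays, and -0.09 in mutants. With the filter applied to the D2 arrays, Apold1 was not tested, Shisa2 missed the threshold (adjusted p = 0.0632, limma) and St6galnac6 kept its call. Shisa2 passed in 11 of the 27 fits that leave out 1 array. The count of 3 fell to 0 without D1 mutant saline replicate 1, D1 control saline replicate 1 or D2 mutant saline replicate 3. It was 5 without D1 mutant saline replicate 2 or D2 mutant cocaine replicate 2, 6 without D2 control cocaine replicate 2, 7 without D1 control cocaine replicate 4 and 38 without D2 control cocaine replicate 4.

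**Figure D4:**
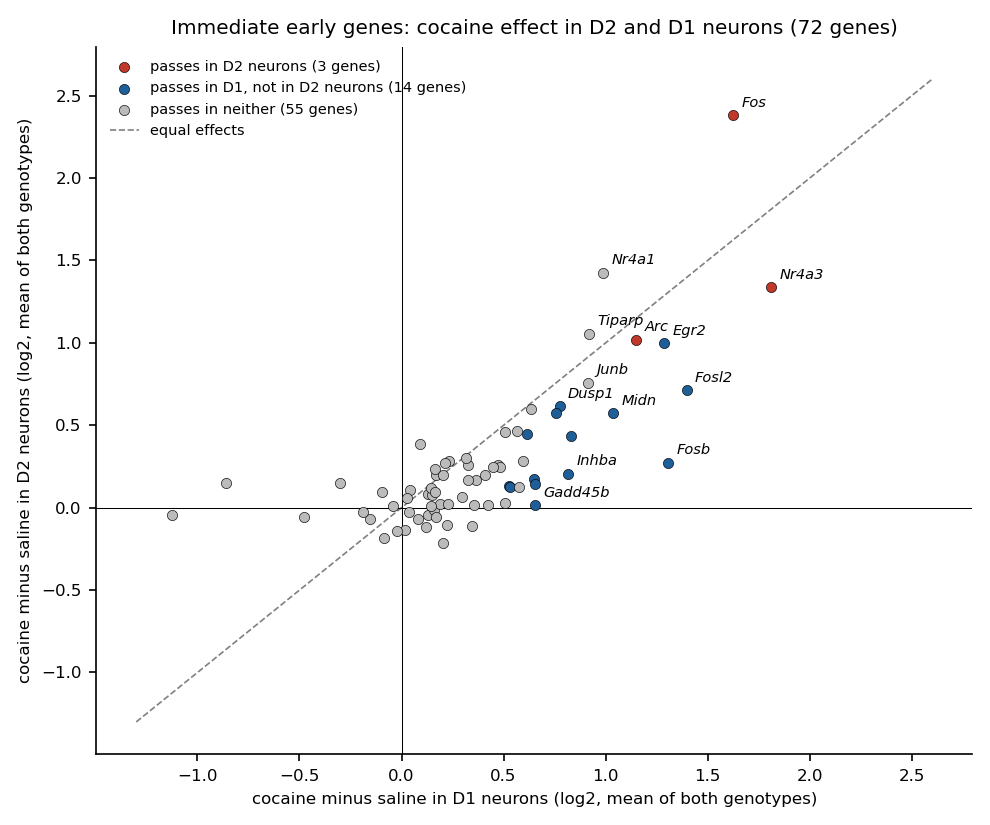
Cocaine effect of the 72 immediate early genes in D2 neurons (y axis, log2) against D1 neurons (x axis, log2), each averaged over genotypes, coloured by where the gene passed, with a dashed line of equal effects. Fos lies above the line (2.38 in D2 and 1.63 in D1 neurons), and Fosb (0.27 in D2 and 1.31 in D1 neurons) and Inhba (0.21 in D2 and 0.82 in D1 neurons) lie below it.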

How the data were processed

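RNA bound to tagged ribosomes from mouse striatum was measured on Affymetrix Mouse Genome 430 2.0 arrays. Per the submitters' processing notes, the authors ran RMA in Expression Console 1.1 (Affymetrix), which gave the deposited log2 values. A global scaling of the scans in other software is also named in the series' design, and which step it fed is not given in the sources used here. Precision is limited by how many arrays there are.

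Of 45101 probe sets, 34945 had 1 gene symbol, 932 had several and 9160 had none (64 were controls). For each symbol the probe set of highest mean level in the 27 arrays was kept, and tested when above 6 log2 in at least 3 arrays, which left 12017 genes. All 27 arrays were fitted in limma 3.58.1 (R 4.3.3) with 1 mean per group of neuron type, genotype and drug. P-values were adjusted by Benjamini-Hochberg over all genes within each contrast. The script was tested on simulated data. Named genes are up to 12 passing genes in each direction of the averaged contrast and 8 in the others, the 5 smallest p-values where none passed, all members of the immediate early lists, and, from the remaining lists, the 4 members at most with the smallest p-values. The groups, gene lists and tests were chosen with earlier results of these data known. Promoters came from RefSeq (GRCm38.p6). Alternatives covered probe set choice, filters, scaling, moderation, array weights, covariates, a replicate block, the conflicting label and each array left out.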

Additional observations from a re-analysis of the deposited data

Results flagged for a closer look

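Ttr, a choroid plexus gene, stood at 11.40 log2 in D2 control cocaine replicate 3, against 5.40 to 6.24 in the other 3 arrays of the group. It was the 1 value that stood apart among 50 groups of 4 arrays examined, where chance alone marks about 1 in 20. In the same array Fos was 9.96 and Arc 9.10.

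3 genes had a cocaine effect that differed between D2 and D1 neurons by the limma contrast of the 2 effects. The differences, D2 minus D1, were -1.35 for Shisa2, -0.83 for Apold1 and -0.56 for St6galnac6. Apold1 was above the floor of 6 log2 in 2 of the 14 D2 arrays and Shisa2 in 8, so their D2 effects rest on low levels. With the filter applied to the D2 arrays, 1 of the 3 passed, St6galnac6. Its D2 effect was -0.64 in controls, whose saline arrays stood above all other D2 arrays, and -0.09 in mutants.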

How the results depend on the processing

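Of 6295 gene values under the alternatives, 5972 kept their sign and side of the threshold, 265 lost their call, 58 gained one and none of the called values changed sign, while 106 uncalled values did. Counts moved far more. For the averaged effect (16 genes) they were 7 in a fit of the D2 arrays alone, 240 with array weights, 33 with RNA quality as a covariate, 6 with a fold of at least 1.5 and 4 without the 2 D2 control arrays whose description numbers stand apart from the rest. In controls (16 genes) the same settings gave 6, 124, 60, 6 and 1. Controls also had 4 with the probe set of largest variance, 7 with the mean of probe sets, 9 with no filter, 7 with median centring and 5 with the glial covariate. In mutants (0 genes) they gave 1 in the D2 arrays alone, 10 with array weights, 3 with the glial covariate and 1 with mutant cocaine replicate 4 counted as a control. D2 minus D1 (3 genes) gave 1 with a floor of 7 log2, 1 with the filter on D2 arrays, 5 with an intensity trend, 406 with array weights, 38 with RNA quality and 1 without the arrays numbered apart. Without the 3 arrays of highest Ttr, an alternative added after the data were seen, 10 genes passed on average, 9 in controls and 2 in mutants. Mutants minus controls stayed at 0 in these settings. The cause was not tested.

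Leaving out 1 array gave 6 to 50 genes on average, 2 to 48 in controls, 0 to 5 in mutants, 0 to 1 for mutants minus controls and 0 to 38 for D2 minus D1. The split of higher and lower calls was 10 and 6 on average in the reported fit and 9 and 3 with median centring. Lower calls outnumbered higher ones on average with array weights (61 higher and 179 lower), the replicate block (37 and 45) and RNA quality (11 and 22). They also did so without D2 control cocaine replicate 4 (15 and 35) and without D2 mutant cocaine replicate 2 (7 and 8). The split was 7 and 7 on average with the mean of all probe sets. With cyclic loess it was 4 and 9 in controls and 1 and 2 for D2 minus D1. The reported fit did not pair arrays by replicate number. The deviations of same-numbered arrays correlated at 0.37, 0.28 and -0.06 in controls and -0.05, -0.07 and -0.26 in mutants. Those of differently numbered arrays correlated at -0.29 to 0.04 in controls and -0.06 to 0.26 in mutants. Whether the replicate number marks a pairing, in controls or in mutants, was not tested. With the number as a replicate block, 82 genes passed on average, 26 in controls, 17 in mutants and 1 for D2 minus D1.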

Other observations

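Of the remaining lists, none had a member that passed in D2 neurons, averaged over genotypes. Of 41 heat shock and unfolded protein response genes, none passed (limma) and 2 were lower at an unadjusted p under 0.05. One of them, Xbp1, a transcription factor of that response, had -0.27. Of 19 cholesterol synthesis genes, none passed (limma), 1 had an unadjusted p under 0.05 (Fdft1, 0.22), and the median was -0.01. Of 14 glucocorticoid response genes, none passed (limma) and the median was 0.02. Among 4 choroid plexus and ependyma markers, Clic6, a chloride channel protein, had 0.42 (unadjusted p = 0.00256, adjusted p = 0.2, limma), with 0.40 in mutants and 0.44 in controls, while Ttr had -0.43 (adjusted p = 0.937, limma).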
